A study of Mus musculus with 8 samples.

Results

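The cardiac connexins are 5 genes of the 27729 gene names on the array, Gja1, Gja4, Gja5, Gjc1 and Gjd3, taken because a non-control probe carried the gene's name, whatever its values. In all, 9 probes carried these names. The study sorted cells from hearts of mouse embryos of stage E10.5 that carried the minKGFP transgene. This is a bacterial artificial chromosome (BAC) with green fluorescent protein (GFP) as a reporter of minK, the potassium channel subunit encoded by Kcne1. The 4 GFP-high samples are labelled as cardiac conduction system cells and the 4 GFP-low samples as chamber myocardium, and each was hybridised to its own one-colour array. Both groups carry the transgene, come from the same stage and were told apart by brightness in the sort, so the comparison is between bright and dim cells of transgenic hearts, with no non-transgenic sample. The labels call the samples biological replicates but do not say how many embryos each one pooled, nor the strain or the number of transgenic lines.

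Connexins are 4-pass membrane proteins, and a ring of them in one cell docks with a ring in the next to form a gap junction channel, through which current passes between heart muscle cells. Gja1 (Cx43) and Gja5 (Cx40) form channels of higher conductance, used in the working chambers and, for Gja5, also in the fast part of the conduction system. Gjc1 (Cx45) and Gjd3 form channels of low conductance and are known from the slowly conducting nodes, while Gja4 (Cx37) is best known from arterial endothelium and the endocardium. T-box factors of the nodal regions, such as Tbx2 and Tbx3, are known to keep Gja1 and Gja5 low there.

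The 60-base probes are what the arrays measured, and those below are shown because each has an open reading frame with cysteine codons, in capitals. Whether that frame is the coding one was not analysed here, and probes of Gjc1 and Gja4 have open frames as well. Both printed probes have 2 open frames, and cysteine codons are marked and counted in only 1 of them. The Gjd3 probe lies at mm9 chr11:98843770-98843829 on the minus strand. Read from its first base it has 20 codons without a stop, including 3 cysteine codons with 4 and 5 codons between them. The second extracellular loop of a connexin, which takes part in docking, is known for 3 conserved cysteines. The second Gja5 probe lies at mm9 chr3:96854968-96855027 on the plus strand, and from its second base it has 19 codons, 1 of them for cysteine, without a stop.
Gjd3 probe: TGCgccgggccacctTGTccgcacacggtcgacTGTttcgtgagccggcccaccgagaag
Gja5 second probe: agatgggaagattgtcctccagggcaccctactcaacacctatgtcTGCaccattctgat

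A level here is log2 of the processed spot intensity minus the 75th percentile of the same array, so 0 is the brightness of the upper-quartile spot of that array. Each array had 43379 non-control spots, of which 36.3% (GFP-high replicate 3) to 50.7% (GFP-low replicate 2) exceeded background clearly enough to be flagged so by the scanner software, here called well above background. No spot was saturated. GFP-high replicate 3 had the lowest share and also the highest lower limit of measurement, a level of -1.70. Replicates 1 and 2 of either group were on slide 1, the others on slide 2. Both probes of Kcne1 were higher in every GFP-high array than in every GFP-low array, by 1.29 and 2.83 on the log2 scale (exact two-sided permutation test, p = 0.0286 for either probe, which is the lower limit of this test with 4 arrays per group). Of 12875 genes tested, limma placed 18 (0.14%) past an adjusted p of 0.05, of which 9 were higher (0.0699%) and 9 lower (0.0699%). The split depended on the processing, with 14 higher and 6 lower after normexp background correction and 33 higher and 13 lower with a common floor for dim values. None of the 4 connexin genes tested was among them, nor was Kcne1 by its brightest probe (limma, adjusted p = 0.202). The second Kcne1 probe passed when each probe was fitted (limma over all probes, adjusted p = 0.0311). At an unadjusted p under 0.05, Gja1 was the only one of the 4 connexin genes among 1843 genes (14.3%). Gja1 was on the lower side with 821 of them (6.38% of all tested). In sorted bulk samples, fewer cells of a type and less RNA per cell cannot be told apart.

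Gja1, the main connexin of working ventricular muscle, had a lower mean in the GFP-high cells, short of the threshold over all genes. Its probe, at mm9 chr10:56109814-56109873 on the plus strand, was printed at 10 spots, whose SD within an array was 0.026 to 0.10 on the log2 scale. The level was 1.89, 1.66, 3.14 and 1.68 in GFP-high replicates 1 to 4, and 3.77, 3.42, 4.27 and 3.06 in GFP-low replicates 1 to 4. Each GFP-high array was below the GFP-low array of the same number, and the groups overlapped at a single point, where GFP-high replicate 3 lay above GFP-low replicate 4. The means were 2.09 ± 0.71 in GFP-high and 3.63 ± 0.52 in GFP-low (SD, n = 4 each). The difference was -1.53 on the log2 scale, with a standard error of 0.42 and a 95% interval of -2.48 to -0.58, or a 2.89-fold lower intensity.

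For the Gja1 difference limma gave an adjusted p of 0.202 (0.0775 to 0.967 over the alternatives; unadjusted p = 0.00554). An exact two-sided permutation test of this gene alone gave p = 0.0571. It was -1.82 within slide 1 and -1.25 within slide 2, and 4.86% of all tested genes had a lower difference. The median tested gene was 0.16 higher in GFP-high, and relative to that gene the Gja1 difference was -1.69. Without GFP-high replicate 3 the difference was -1.88 (limma, adjusted p = 0.0775). The only overlap came from that array, so the remaining arrays could not overlap. Of all tested genes, 7.57% were lower and 14.4% higher without overlap when that array was left out.

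**Figure D1:**
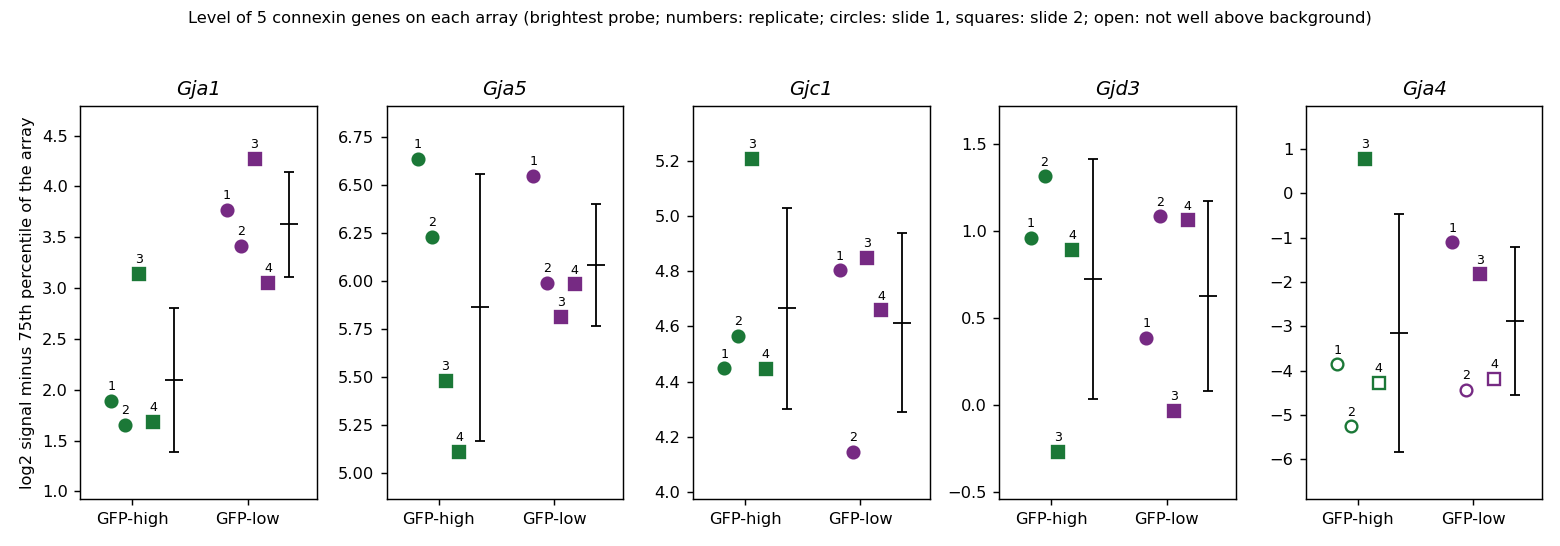
Level of Gja1, Gja5, Gjc1, Gjd3 and Gja4 on each array (vertical axis, log2 signal minus the array's 75th percentile; brightest probe of each gene), with GFP-high and GFP-low side by side; numbers are replicates, circles slide 1, squares slide 2, open symbols spots not well above background, and bars the mean and SD. Gja1 is lower in GFP-high apart from replicate 3 at 3.14, Gja5, Gjc1 and Gjd3 overlap broadly, and Gja4 has 3 filled symbols of 8.

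Gja5, the other high-conductance gene and a marker of atrial and trabecular muscle, had a difference within the spread of its arrays. Its brightest probe, at mm9 chr3:96857349-96857408 on the plus strand, gave levels of 6.64, 6.23, 5.48 and 5.11 in GFP-high replicates 1 to 4. In GFP-low replicates 1 to 4 the same probe gave 6.55, 5.99, 5.81 and 5.98. The GFP-high arrays spread on both sides of the GFP-low arrays. The difference was -0.22 ± 0.38 (SE; 95% interval -1.08 to 0.64; limma, adjusted p = 0.795). The interval reaches a 2.11-fold lower intensity, so a change of up to that size in Gja5 cannot be seen or excluded with 4 arrays per group. The sign differed between slides, with 0.16 in slide 1 and -0.61 in slide 2.

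The second Gja5 probe, whose sequence is printed above, starts 2381 bases before the first in the same gene. It read 3.36, 3.25, 1.80 and 2.26 in GFP-high and 3.001, 1.97, 3.33 and 3.93 in GFP-low, in replicate order. On slide 1 the GFP-high arrays were the brighter ones, by 0.82, and on slide 2 the dimmer ones, with a difference of -1.599. Across the 8 arrays the difference was -0.39 (95% interval -1.56 to 0.78; limma over all probes, adjusted p = 0.744). Both probes of Gja5 therefore gave a small negative difference over all arrays, with a slide-to-slide spread larger than the difference itself. The other 2 probes named Gja5 were designed from a cDNA clone and lie 1.358 Mb further along the chromosome, at mm9 chr3:98215672-98215731 and chr3:98214966-98215025. Neither was well above background on any of the 8 arrays, and they were not used as measures of Gja5.

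Gjc1, the low-conductance connexin present from the earliest beating heart, had means that lay within the spread of its arrays. Its brightest probe, at mm9 chr11:102661053-102661112 on the minus strand, gave 4.45, 4.56, 5.21 and 4.45 in GFP-high replicates 1 to 4. The GFP-low levels were 4.80, 4.15, 4.85 and 4.66. GFP-high replicate 3 was the highest array, GFP-low replicate 2 was the lowest, and the other 6 lay between 4.45 and 4.85. The difference was 0.05 ± 0.28 (SE; 95% interval -0.59 to 0.70; limma, adjusted p = 0.945), which leaves room for up to a 1.62-fold difference. It was 0.03 within slide 1 and 0.07 within slide 2. Without GFP-high replicate 3 it was -0.13, and it was also negative with normexp background correction or quantile normalisation, so it has no settled direction.

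The second Gjc1 probe starts 186 bases away, at mm9 chr11:102661239-102661298, and its extreme arrays were those of the first. It read 1.81, 1.81, 2.34 and 1.86 in GFP-high and 2.30, 1.26, 1.71 and 2.03 in GFP-low. Again GFP-high replicate 3 was the highest array and GFP-low replicate 2 the lowest. The difference was 0.13 (95% interval -0.56 to 0.82), and the log2 ratio of both Gjc1 probes within an array differed by 0.08 between the groups.

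Gjd3, the other low-conductance gene and one known from the atrioventricular node, was measured on all 8 arrays by 1 probe. Its levels were 0.96, 1.32, -0.27 and 0.89 in GFP-high replicates 1 to 4 and 0.39, 1.08, -0.04 and 1.06 in GFP-low replicates 1 to 4. Replicate 3 was the lowest array of both groups, and the groups overlapped over nearly their whole range. The difference was 0.10 ± 0.42 (SE; 95% interval -0.85 to 1.05; limma, adjusted p = 0.924), which leaves room for up to a 2.08-fold difference. It was 0.40 within slide 1 and -0.20 within slide 2, and its sign turned without GFP-high replicate 2 or without GFP-low replicate 3. The Gjd3 probe was the most GC-rich of the connexin probes, at 68.3%, against 35.0% for the Gja1 probe.

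**Figure D2:**
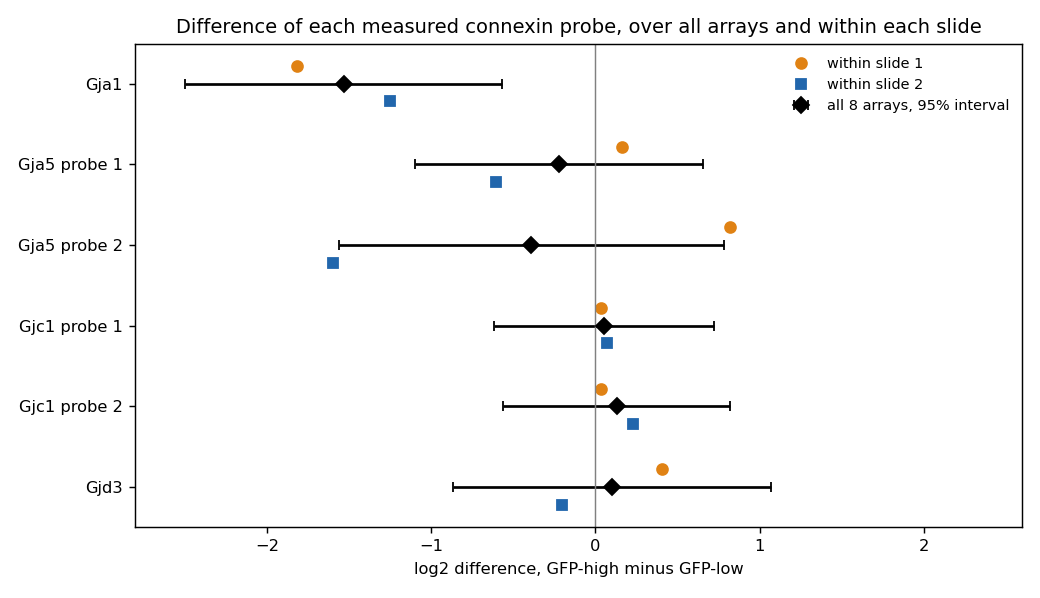
Difference of each measured connexin probe (horizontal axis, log2, GFP-high minus GFP-low) over all arrays with its 95% interval from limma over all probes (diamonds), within slide 1 (circles) and within slide 2 (squares). The Gja1 interval is the only one that lies wholly below 0, while the slides fall on opposite sides of 0 for both Gja5 probes and for Gjd3.

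Gja4, the vascular connexin, was near the limit of measurement. Its only probe, at mm9 chr4:126988848-126988907 on the minus strand, was well above background on 3 of 8 arrays, at a level of 0.77 in GFP-high replicate 3, -1.11 in GFP-low replicate 1 and -1.83 in GFP-low replicate 3. On the other 5 arrays it was not well above background, with readings of -3.86, -5.26 and -4.27 in GFP-high replicates 1, 2 and 4 and of -4.44 and -4.18 in GFP-low replicates 2 and 4. The array with the highest Gja4 level, GFP-high replicate 3, was also the one with the fewest spots above background. Gja4 was below the minimum of 4 arrays for the test over all genes, and the means differed by -0.27, a value that rests mostly on background readings and was 0.33 with normexp and 0.47 with a common floor. The difference was -1.79 within slide 1 and 1.26 within slide 2, and it was -1.57 without GFP-high replicate 3, so it has no settled direction.

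Genes of the endothelium, the tissue in which Gja4 is best known, were mostly dim in both groups as well. Of 20 endothelial and endocardial markers 9 were tested and none passed the threshold (limma, adjusted p over all genes; 0 at an unadjusted p under 0.05), with a median difference of 0.09 against 0.16 over all genes. Their summed level ran from 2.73 to 3.52 in GFP-high and from 2.42 to 3.67 in GFP-low. Of the tested markers, Nfatc1, Egfl7, Ramp2, Flt1 and Esam were well above background on all 8 arrays. Cldn5 was so on 7, Cd34 on 6, and Cdh5 and Kdr on 5. Pecam1, Tek, Eng, Sox17 and Sox18 were above background on none. Not all were dim, as Nfatc1 had mean levels of 0.50 in GFP-high and 0.95 in GFP-low, and Egfl7 of 1.22 and 0.58. The tested markers with the smallest p were Esam, a junction protein, at 0.66 ± 0.29 (SE), and Egfl7, a secreted vessel factor, at 0.64 ± 0.29. Of 9 arterial markers 5 were tested and none passed the threshold (0 at an unadjusted p under 0.05). All 5 had a negative difference on the brightest probe, while 7993 of the 12875 tested genes had a positive one. That of Notch1, above background on 4 of 8 arrays, was only -0.02. The second probes of Notch1 and Jag1 gave 0.53 and 0.22, so the shared direction depends on the probe. Other probes gave -1.06 for Efnb2, and -1.41 and -0.25 for Nrp1. The median of the 5 was -0.42, and the summed level of the list was 4.38 to 4.97 in GFP-high and 4.89 to 5.32 in GFP-low. Efnb2 was at -0.55 ± 0.35 (SE) and Hey1, which is also in the transcription factor list below, at -0.42 ± 0.35. Dll4 was above background on no array, and Notch4, Bmx and Acvrl1 on too few for the test. The part of the endothelial and arterial markers in the Gja4 readings was not tested.

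Setting a high-conductance against a low-conductance gene within each array removes the scale of that array from the comparison. The log2 ratio of Gja1 to Gjc1, relative to its mean over the 8 arrays, was -0.78, -1.13, -0.28 and -0.98 in GFP-high replicates 1 to 4 and 0.74, 1.05, 1.20 and 0.18 in GFP-low replicates 1 to 4. Every GFP-high array was below every GFP-low array. Single genes whose arrays did not overlap between groups made up 8.95% of all tested genes, of which 3.08% were lower and 5.86% higher in GFP-high. The ratio differed by -1.59, with -1.85 within slide 1 and -1.32 within slide 2. With the second Gjc1 probe it differed by -1.66, again without overlap. The ratio was chosen after its values were seen and gets no test. A ratio shows unequal change and does not say which of the 2 genes moved.

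No other ratio of a high- to a low-conductance gene separated the groups. Gja1 over Gjd3 differed by -1.63, and GFP-high replicate 3 (1.23 relative to the mean) lay above all GFP-low arrays but replicate 3. Gja5 over Gjc1 differed by -0.27, with 0.13 in slide 1 and -0.68 in slide 2. Gja5 over Gjd3 differed by -0.32, with -0.24 and -0.40. Between the high-conductance genes themselves the ratio of Gja1 to Gja5 differed by -1.31, with -1.98 in slide 1 and -0.64 in slide 2, with overlapping arrays. Between the low-conductance genes, Gjc1 over Gjd3 differed by -0.05.

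The balance of all 4 genes, the mean of Gja1 and Gja5 minus the mean of Gjc1 and Gjd3 on the log2 scale, was 1.56, 1.002, 1.84 and 0.73 in GFP-high replicates 1 to 4. In GFP-low replicates 1 to 4 it was 2.56, 2.09, 2.64 and 1.66. Each GFP-high array was below the GFP-low array of the same number, and GFP-high replicate 3 lay above GFP-low replicate 4. The balance differed by -0.95, with means of 1.28 ± 0.51 and 2.24 ± 0.45 (SD, n = 4 each), and by -1.04 within slide 1 and -0.86 within slide 2. Since Gja1 enters it with the largest difference of the 4, the balance is no separate result.

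**Figure D3:**
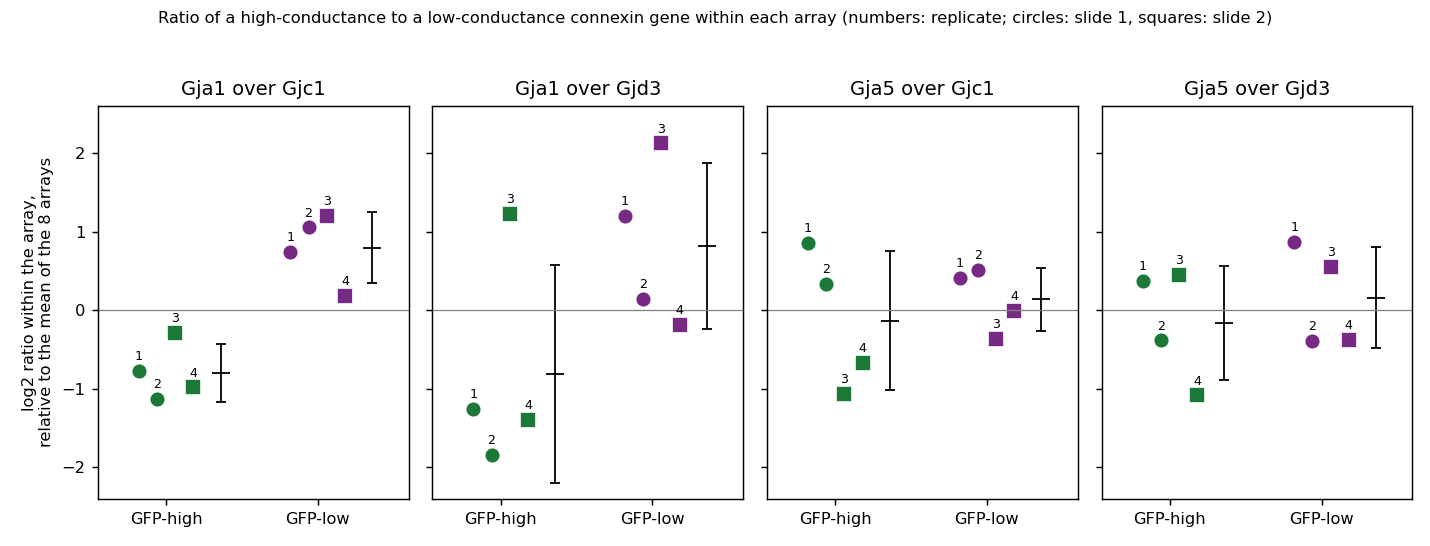
Log2 ratio of a high-conductance to a low-conductance connexin gene within each array (vertical axis, relative to the mean of the 8 arrays), for the pairs named above each panel; numbers are replicates, circles slide 1, squares slide 2, and bars the mean and SD of 4 arrays. In the panel of Gja1 over Gjc1 the GFP-high arrays lie between -1.13 and -0.28 and the GFP-low arrays between 0.18 and 1.20, while the other pairs overlap.

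The genes whose profile over the 8 arrays lay nearest to a connexin were found by the root mean square distance of the centred log2 levels among 9015 genes well above background on all arrays. Gja1 was nearest to Wdr43 (0.18), Hnrnpu (0.22) and Azi2 (0.24), against a median distance of 1.14. These 3 genes had differences of -1.78, -1.43 and -1.53, none past the threshold. Gja5 was nearest to Vcp (0.17) and Pi4k2a (0.18), against a median of 0.63. Gjc1 was nearest to a cDNA clone (0.08) and to Ccnb2 (0.09) and Isca1 (0.10), against 0.58. Gjd3 was nearest to Tmem116 (0.10), Hoxd9 (0.13) and Eno1 (0.13), against 0.66. No connexin was among the nearest genes of another.

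The rest of the connexin family was near or below the limit of measurement. The array holds 15 further connexin genes with 19 probes, and none of those probes was well above background on all 8 arrays. No probe of Gja6, Gjb6, Gjc3, Gjd2, Gjd4 or Gje1 was well above background on any array. Gja3 was tested, at 1.02 ± 1.48 (SE; limma, adjusted p = 0.758). After normexp its difference was 0.45. Among the pannexins, channel proteins of another family, Panx1 differed by 0.00 ± 0.34 (SE; adjusted p = 0.999) and Panx3 was not well above background.

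Genes that bind connexins or build the junctional plaque had mostly negative differences. This list and those that follow were chosen with earlier results of these data known, so their counts are descriptions only. Of 13 tested, none passed the threshold (limma, adjusted p over all genes), and 5 had an unadjusted p under 0.05 (14.3% of all tested genes did). A positive difference was found in 5 of the 13, beside 7993 of all 12875 tested genes. The median was -0.75 against 0.16 over all genes. In 5 of the 13, the GFP-high arrays were all below the GFP-low arrays, and in 0 were they all above, beside 3.08% lower and 5.86% higher over all tested genes. These 5, named after their values were seen, were Tjp1, Ank3, Mapre1, Cdh2 and Cav3. Under other scalings and background corrections the number lay between 2 (median scaling) and 5, and without GFP-high replicate 3 it was 5, beside 7.57% of all genes.

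Tjp1, which encodes the ZO-1 scaffold that binds the tail of the Gja1 protein, read 0.35, -1.36, -0.86 and -0.26 in GFP-high replicates 1 to 4 and 0.51, 2.06, 1.89 and 1.82 in GFP-low. The groups came closest in replicate 1. The difference was -2.10 ± 0.47 (SE; limma, adjusted p = 0.158), and the second Tjp1 probe gave -0.95 with overlapping arrays. Cdh2 encodes N-cadherin, the adhesion protein of the intercalated disc. It read -0.30, 0.60, 1.63 and 1.20 in GFP-high and 1.69, 1.97, 3.07 and 2.59 in GFP-low, a difference of -1.55 ± 0.48 (adjusted p = 0.244). Ank3, ankyrin-G, differed by -1.76 ± 0.51 (adjusted p = 0.227) and by -1.69 on its second probe. Mapre1, the microtubule end protein EB1, differed by -1.67 on its brightest probe and by -0.83 and -0.51 on the others, which overlapped. Cav3, a muscle caveolin, differed by -0.75 ± 0.27. Ctnnb1, β-catenin of the same adhesion complex as Cdh2, had a difference of 0.27 ± 0.23, or 0.03 with quantile normalisation.

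Transcription factors known to act on connexin genes were next. Of 14 tested, none passed the threshold (limma, adjusted p over all genes), and 7 had an unadjusted p under 0.05 (14.3% over all genes). A positive difference was found in 8 of the 14, a share near that of all genes (7993 of 12875). The median was 0.57 against 0.16 over all genes. The GFP-high arrays were all above the GFP-low arrays in 5 of them (5.86% over all genes) and all below in 1 (3.08%), named here after their values were seen. Id2, a partner of the T-box factors in the conduction system, read 4.03, 4.41, 4.29 and 3.94 in GFP-high and 2.56, 2.69, 2.68 and 2.76 in GFP-low. Its log2 difference was 1.495 ± 0.22 (SE; adjusted p = 0.0654), past the threshold with normexp (0.0476) and with a common floor (0.0146). Gata4 was at 0.97 ± 0.27 (adjusted p = 0.218). Msx2, Hopx and Tbx2, which act as repressors or corepressors, were at 2.79 ± 0.89, 0.76 ± 0.25 and 0.63 ± 0.23. The Msx2 value includes a reading below background of -4.97 in GFP-low replicate 2, and it was 1.48 with normexp and 1.94 with a common floor.

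Tbx5, an activator of Gja5, differed by -1.07 ± 0.36 (SE) on its brightest probe and by 0.75 on its second probe, which overlapped, so the probes disagree. Tbx3 was above background on 5 of 8 arrays and differed by 1.46 ± 0.93, or by 0.67 with normexp and 0.48 with a common floor. Nkx2-5 differed by 0.71 ± 0.33 and Tbx20 by -0.97 ± 0.36. Msx1 and Shox2 were not well above background on any array.

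**Figure D4:**
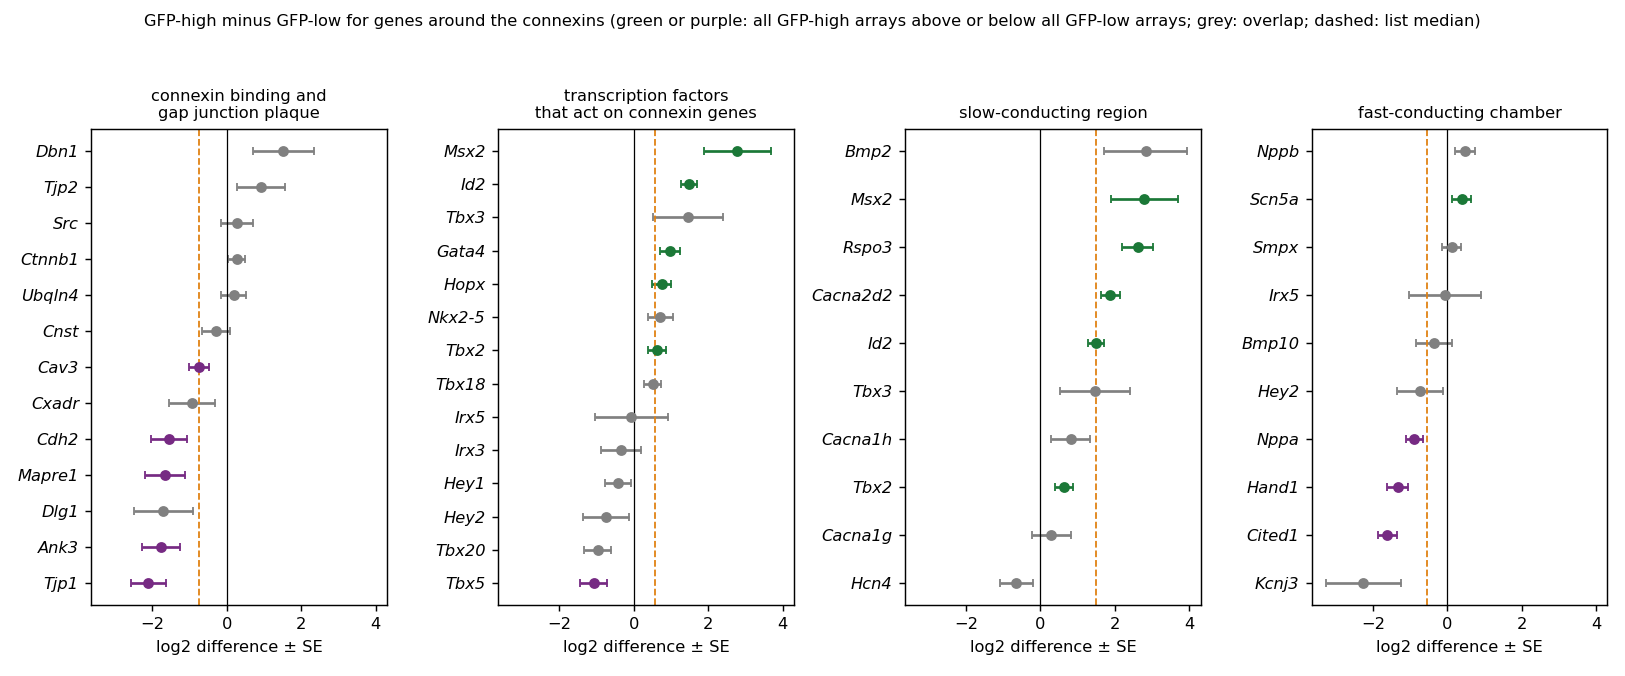
Difference of single genes (horizontal axis, log2, GFP-high minus GFP-low, with its standard error) in the lists of genes around the connexins; green or purple marks genes whose GFP-high arrays all lie above or below the GFP-low arrays, and the dashed line is the median of the list. The list of connexin-binding genes has its median at -0.75 and the list of transcription factors at 0.57.

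The start regions of Gja1 and Gja5 are shown because these factors are known to act on them, and because both genes were measured on every array and had different values. They are 300 bases each, 250 before and 50 after the RefSeq start site, on GRCm38.p6, at chr10:56377050-56377349 for Gja1 and chr3:97032152-97032451 for Gja5, both on the plus strand. A match to a searched motif is in capitals.
Gja1 start region: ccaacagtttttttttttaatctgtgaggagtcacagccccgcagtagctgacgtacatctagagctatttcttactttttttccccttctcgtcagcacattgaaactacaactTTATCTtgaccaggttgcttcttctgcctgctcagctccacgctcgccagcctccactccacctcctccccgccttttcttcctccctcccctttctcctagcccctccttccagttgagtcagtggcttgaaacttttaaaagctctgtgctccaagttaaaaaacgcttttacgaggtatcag
Gja5 start region: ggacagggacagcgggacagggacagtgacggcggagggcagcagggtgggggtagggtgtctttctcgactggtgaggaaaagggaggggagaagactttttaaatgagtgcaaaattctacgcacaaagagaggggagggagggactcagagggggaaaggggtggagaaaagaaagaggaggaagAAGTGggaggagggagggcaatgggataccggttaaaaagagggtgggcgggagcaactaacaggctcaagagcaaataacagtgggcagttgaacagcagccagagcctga

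Each motif was searched on both strands. The Gja1 window holds 1 GATA match (AGATAA, as TTATCT on the printed strand) at position -135, and 11.2% of 32851 RefSeq start regions of the same length hold that motif. The Gja5 window holds 1 match to the NK2 homeobox motif AAGTG at position -62, a motif found in 46.4% of the start regions. Neither window holds the T-box letters GTGTGA or TCACAC, which 14.5% of start regions do, and this says only that these letters are not in these windows. A match is a description of the letters and not a binding site. Of the 5 genes, 3 had a start region in the table.

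Genes of the slowly and fast-conducting regions give the setting in which the connexins were read. Tbx2, Tbx3, Msx2 and Id2 of the slow list are also in the transcription factor list above, as are Hey2 and Irx5 of the fast list. Their values are counted in both places, so the lists are not separate results. Both lists were chosen with earlier results of these data known, so their counts describe the lists and test nothing. Of 10 tested genes of the slowly conducting regions, Cacna2d2, a calcium channel subunit, rose in GFP-high by 1.87 ± 0.25 (SE; limma, adjusted p = 0.0465), a call that did not hold in every setting. Its difference was 1.56 to 1.99 in all alternatives, but the adjusted p was 0.0566 with quantile normalisation, 0.0774 with median scaling, 0.148 with the replicate block and 0.0528 to 0.148 when any 1 of the 8 arrays was left out. It read 4.59, 4.51, 4.10 and 4.22 in GFP-high and 2.83, 2.63, 2.36 and 2.11 in GFP-low. The list's median was 1.48 (0.95 with normexp and quantile normalisation). A positive difference was found in 9 of 10, beside 7993 of all 12875 tested genes. An unadjusted p under 0.05 was reached by 6 of the 10 (14.3% over all genes). The GFP-high arrays were all above the GFP-low arrays in 5 (5.86% over all genes) and all below in 0 (3.08%). Of 10 tested genes of the fast-conducting chambers none passed the threshold, 3 had an unadjusted p under 0.05 (14.3% over all genes) and the median was -0.55. A positive difference was found in 3. The GFP-high arrays were all above the GFP-low arrays in 1 (5.86% over all genes) and all below in 3 (3.08%). Cited1, a chamber transcription cofactor, was at -1.61 ± 0.25 (adjusted p = 0.0724, and 0.034 with normexp), and Hand1, a left ventricular factor, was at -1.33 ± 0.28 (adjusted p = 0.145).

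Markers of other cell types were read because they could accompany a change in connexins. The 12 cardiomyocyte markers were all measured, and none was past the threshold (limma, with 1 at an unadjusted p under 0.05). All 12 had a positive difference, as did 7993 of all 12875 tested genes, and their median was 0.34 against 0.16 over all genes. Tnni3 was at 0.77 ± 0.28 (SE). The number of positive differences was 7 of 12 with quantile normalisation (median 0.09), 9 with normexp (0.21) and 8 with both (0.12), so the direction of this list depends on the scaling. Of the cushion and fibroblast markers, cells of the valves and of connective tissue, 6 of 12 were tested with a median of -0.44 and none past the threshold (0 at an unadjusted p under 0.05), with a summed level of 2.41 to 3.33 in GFP-high and 3.02 to 3.86 in GFP-low; Col1a2 was at -0.90 ± 0.48 and Pdgfra at -0.77 ± 0.65, and Snai1 was not well above background. Their part in the Gja1 difference was not tested.

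The remaining lists had no gene past the threshold with the scaling used throughout, though Lyz2 passed with a common floor (limma, adjusted p = 0.0365). Epicardial markers (6 of 11 tested) had a median of 0.48, with Tbx18 at 0.51 ± 0.23 (SE) and Gpm6a at 0.76 ± 0.63, and smooth muscle markers (6 of 7) had a median of 0.19, with Cnn1 at 0.50 ± 0.26 and Myocd at -0.51 ± 0.28. Neural crest and neuronal markers (4 of 10) had a median of 0.17, with Ngfr at 0.31 ± 0.29 and Tubb3 at -0.89 ± 0.93. Erythroid markers (7 of 10) had a median of -0.03 and varied widely within both groups, with summed levels of 4.71 to 7.61 and 3.72 to 7.52; Epor was at 0.38 ± 0.48 and Slc4a1 at -0.71 ± 1.46. Leukocyte markers (2 of 10) were Lyz2 at 1.46 ± 0.24 (limma, adjusted p = 0.0948) and Cd68 at 0.94 ± 0.68 (0.37 with normexp), with summed levels of 3.53 to 3.98 in GFP-high and 1.89 to 2.66 in GFP-low, while Ptprc, Csf1r, Cd52 and Spi1 were not well above background on any array. Lyz2 was the only gene of these 5 lists with an unadjusted p under 0.05, and their part in the connexin values was not tested.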

How the data were processed

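The deposited files are one-colour Agilent scanner outputs with spot intensity on a linear scale, read with Agilent Feature Extraction 10.5.1.1 per the submitters' processing notes; per the file headers the processed intensity was background-subtracted before the authors deposited it. Per the labels' protocols, 5 ng of total RNA per sample was amplified and labelled with 1 dye.

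The processed signal was put on the log2 scale here, and the 75th percentile of the non-control spots of that array was subtracted; control and outlier spots were left out and repeat spots of 1 probe averaged. A current symbol was found for 33067 of the 41174 non-control probes, and the brightest probe stood for each gene. Genes well above background on at least 4 of 8 arrays (12875, leaving out 14854) were tested with lmFit and eBayes in limma 3.58.1 (R 4.3.3), group as the only term, with Benjamini-Hochberg adjustment. P-values measure the spread between these samples. The fit was tested on simulated data.

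Named genes were the 5 connexins and all their probes, Kcne1, the past-threshold genes of each list or else the 2 of smallest p, and the 3 nearest profiles per connexin; genes named beyond this rule were named after their values were seen. The connexins and all gene lists were chosen with earlier results of these data known. Alternatives covered scaling, background correction, dim values, filter, probe choice, eBayes setting, slide, pairing, single arrays and the whole-series table. Probe coordinates are mm9, as the files give them; their position in exons or UTRs was not analysed here. Start regions are from RefSeq. A few further connexin genes are not reported here.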

Additional observations from a re-analysis of the deposited data

Results flagged for a closer look

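In 3 sets of GFP-high arrays, 1 array stood apart from the other 3, and it was replicate 3 each time. For Gja1 it read 3.14 against 1.89 for the next array, a gap of 0.842 of the group's whole range. For the brightest Gjc1 probe it read 5.21 against 4.56, a gap of 0.844 of the range, and for the second Gjc1 probe 2.34 against 1.86, a gap of 0.897. Each gap was above Dixon's 95% critical value for 4 arrays. Chance gives such a gap in about 1 of 20 groups, and 18 groups were looked at. The same array had the lowest share of spots well above background, 36.3%; its part in these values was not tested.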

How the results depend on the processing

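The Gja1 difference was negative and short of the threshold in all 22 alternatives (-1.88 to -1.25, and -1.88 to -1.32 when leaving out 1 array). Several of them left the difference itself unchanged at -1.53 and bear on its p-value at most. These were the filters, the common floor, the mean over probes, the eBayes setting, the slide and replicate blocks, and the whole-series table, whose values were the same. The Gja1 to Gjc1 ratio stayed between -1.85 and -1.32 in 17 alternatives and the balance between -1.15 and -0.77 in 18. Signs of the small differences turned. Gja5 was 0.16 within slide 1, and -0.48 to 0.03 when leaving out 1 array (0.031 without GFP-high replicate 4). Gjc1 was -0.10 with quantile normalisation, -0.13 with normexp and -0.12 with both, and -0.13 to 0.13 when leaving out 1 array (-0.13 without GFP-high replicate 3, -0.10 without GFP-low replicate 2). Gjd3 was -0.0045 with normexp, -0.20 within slide 2, and -0.12 to 0.43 when leaving out 1 array (-0.095 without GFP-high replicate 2, -0.12 without GFP-low replicate 3). Gja4 ran from -1.79 to 1.26. The cause was not tested. The 18 genes past the limma threshold became 9 with quantile normalisation, 46 with a common floor, 3 without the filter, and 11 with genes above background on all 8 arrays. They became 0 with median scaling (1596 at an unadjusted p under 0.05) and 0 within slide 1 and slide 2 (1569 and 788), where fewer arrays were fitted, and 0 to 7 when leaving out 1 array. The median difference of all genes was 0.05 to 0.16 under the other scalings and background corrections. With slide as a block 11 genes passed. With the replicate block 0 passed (2381 unadjusted) and Gja1 stayed at -1.53 (adjusted p = 0.153). Correlations of same-numbered arrays ran from 0.0647 to 0.303, and 7 of 8 arrays correlated best with their own number. The labels link these samples only by number, and same-numbered arrays were also on the same slide. The part of the slide in these correlations was not tested. The number of arrays limits the precision.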
